A study of Homo sapiens with 12 samples.

Results

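The chromosome 19 microRNA cluster was examined in SUM159, an established line of triple-negative human breast cancer. Its members were all human names on the array numbered miR-512 or miR-515 to miR-526, with any suffix, plus miR-1283 and miR-1323. This gave 45 of the 851 human names. All 4 groups derived from cells stably infected with a pLKO.1 lentiviral vector. It expressed a scrambled shRNA as control or an shRNA targeting Dicer, the enzyme that releases mature microRNAs from their precursor hairpins. Both lines were exposed for 24 h to PBS as vehicle or to metformin, an oral antidiabetic drug, at 0.5 mM. The 4 groups are named control vehicle, Dicer vehicle, control metformin and Dicer metformin, with 3 biological replicates each, 12 arrays in all. The labels name 1 Dicer shRNA and do not say whether a line was a clone or a pool. Nothing says that the replicates came from separate cultures, so p-values measure only the spread between these samples.

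The cluster is specific to primates and lies on the long arm of chromosome 19, where many related precursor hairpins follow each other. It is an imprinted locus known for high expression in placenta, in trophoblast and in some embryonal tumours, and it is silent in most adult tissues. A microRNA guides the silencing complex to messenger RNAs mainly through its seed, bases 2 to 8 counted from the 5′ end. Several cluster members carry the seed of the miR-302 and miR-372 families, which are abundant in pluripotent cells.

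The mature sequences of 43 of the 45 members were found in RefSeq (GRCh38.p14), and no sequence is printed for miR-518f and miR-522. The 3 members that gave a signal are shown first, with the seed in capitals, because the results turn on them.

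miR-520b: aAAGUGCUuccuuuuagaggg
miR-520e: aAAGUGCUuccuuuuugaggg
miR-516a-5p: uUCUCGAGgaaagaagcacuuuc

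In GRCh38.p14, miR-520b lies at chr19:53701267-53701287 and miR-520e at chr19:53675764-53675784. The miR-516a-5p sequence occurs at chr19:53756756-53756778 and again at chr19:53761148-53761170. All are on the plus strand within precursor hairpins of non-coding genes. The 21 bases of miR-520b and miR-520e differ by A16U, counted from the 5′ end of miR-520b. The array's probes were not used here, so how far a probe separates these names is not known from the sequences alone.

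The nearest relatives of the detected members within the cluster gave no signal on any array. They are printed so that the shared stretches can be read against the sequences above.

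miR-520c-3p: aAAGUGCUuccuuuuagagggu
miR-520f: aAGUGCUUccuuuuagaggguu
miR-526b*: gAAAGUGCuuccuuuuagaggc
miR-519b-3p: aAAGUGCAuccuuuuagagguu
miR-520a-3p: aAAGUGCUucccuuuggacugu
miR-520d-3p: aAAGUGCUucucuuuggugggu
miR-516b: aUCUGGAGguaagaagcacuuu
miR-516a-3p: uGCUUCCUuucagagggu

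The whole of miR-520b is contained in miR-520c-3p, which is 1 base longer and was detected on 0 arrays. Its seed, AAGUGCU, is shared by 5 cluster members, of which 2 were detected, and by 12 RefSeq mature names in all. miR-520f and miR-526b* each share a run of 20 bases with miR-520b. The seed of miR-516a-5p, UCUCGAG, has no other RefSeq name, and its closest cluster member, miR-516b, lies 4 edits away. miR-516a-3p is the opposite arm of the miR-516a precursors. The 43 sequences hold 26 different seeds and are 18 to 24 bases long. Their GC content ranged from 31.8% to 59.1% (median 45.5%), and the 3 detected members lay at 42.9%, 42.9% and 43.5%.

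Of the 45 members, 3 were detected on at least 1 array, which is 6.67%, whereas 260 of the 806 other human names (32.3%) were detected. Over all human names the share was 30.9%. miR-520b was detected on 12 of 12 arrays. miR-520e and miR-516a-5p were each detected on 11, and both were missing on control vehicle replicate 3. Detection is the flag of the scanner software, and all 506 undetected member readings hold a signal of 0.1. On every array that detected the 3 members, each signal exceeded 3 times its stated error. The lowest detected human signal of an array ranged from 1.64 to 3.78, so fainter members would not have been seen.

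**Figure D1:**
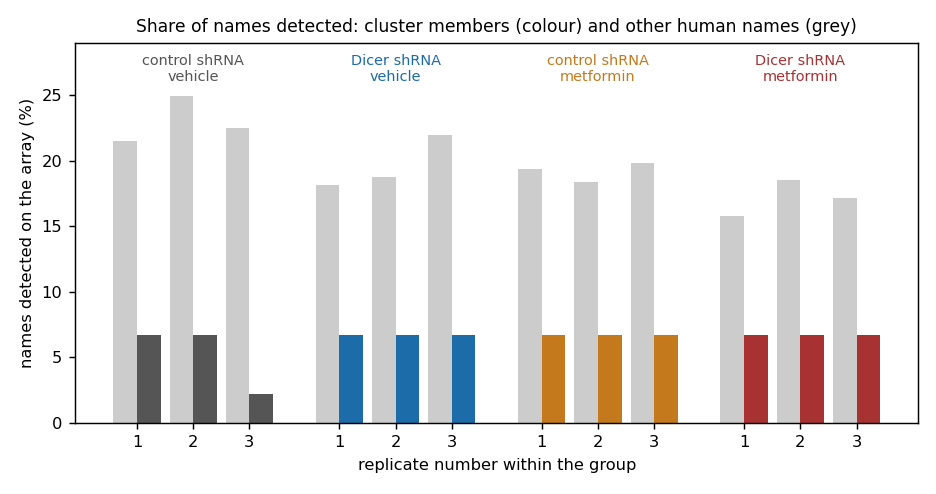
Share of names detected on each array in percent, for the 45 cluster members (coloured bars) and the 806 other human names (grey bars), by group and replicate. On 11 arrays 6.67% of the members were detected and on control vehicle replicate 3 it was 2.22%, below the grey bar on every array.

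The 42 members detected on no array were miR-1283, miR-1323, miR-512-3p, miR-512-5p, miR-515-3p, miR-515-5p, miR-516a-3p, miR-516b, miR-517*, miR-517a, miR-517b, miR-517c, miR-518a-3p, miR-518a-5p, miR-518b, miR-518c, miR-518c*, miR-518d-3p, miR-518e, miR-518e*, miR-518f, miR-518f*, miR-519b-3p, miR-519c-3p, miR-519d, miR-519e, miR-519e*, miR-520a-3p, miR-520a-5p, miR-520c-3p, miR-520d-3p, miR-520f, miR-520g, miR-520h, miR-521, miR-522, miR-523, miR-524-3p, miR-525-3p, miR-525-5p, miR-526b and miR-526b*. They include the miR-517 names, of which miR-517a is widely used as a marker of placental RNA in blood, and miR-519d, which carries the seed of miR-17.

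The 43 matched members map to 39 hairpins, all on the plus strand over 94.54 kb. Hairpins outside the rule, such as MIR527 directly before MIR516A1, and that of the unmatched miR-522 are not counted. MIR520E and MIR520B lie 25.5 kb apart with 12 counted hairpins between them. A further 55.5 kb and 19 counted hairpins separate MIR520B from MIR516A1, and MIR516A2 follows after 4.39 kb and 1 more. None of the counted hairpins in between gave a signal under the names on the array, so no detected member directly neighboured another along the cluster. Because both MIR516A loci hold the same mature sequence, the array cannot say which of them gave the signal.

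**Figure D2:**
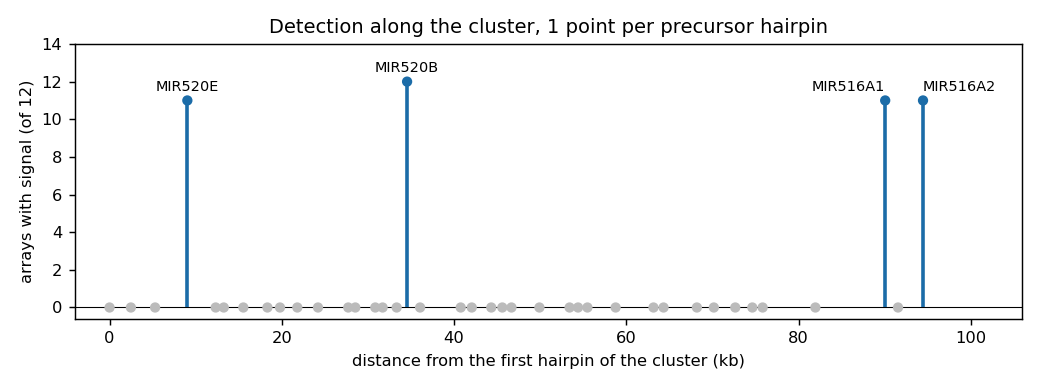
Number of arrays (of 12) with a signal from each of the 39 precursor hairpins, against the distance in kb from the first hairpin of the cluster. MIR520E, MIR520B and the MIR516A loci stand at 11 to 12 arrays and all other hairpins at 0.

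Slide 1 carried the vehicle arrays of both lines and slide 2 the metformin arrays, which means that drug and slide cannot be told apart. On each slide the control shRNA arrays preceded those of Dicer shRNA, so line and position cannot be told apart. Between 130 and 204 human names were detected per array, and since no probe reads Dicer mRNA the knockdown went unchecked. The breast line markers miR-221, miR-222, miR-21 and miR-100 were detected on all 12 arrays and miR-125b on 10, and the epithelial miR-200 group (5 names) on none. The summed scaled signal of the 5 breast line markers was 1831 to 2059 in control vehicle, 568 to 695 in Dicer vehicle, 43.8 to 81.7 in control metformin and 259 to 371 in Dicer metformin. In such bulk RNA, fewer cells of a type and less RNA per cell cannot be told apart.

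miR-520b, of a seed family known to repress the cell cycle inhibitor CDKN1A, had deposited signals of 19.5, 19.5 and 15.4 in control vehicle (replicates 1 to 3). In Dicer vehicle its signals were 46.4, 41.0 and 31.4. In control metformin they were 39.6, 30.3 and 34.7, and in Dicer metformin 39.1, 38.0 and 36.4. Control vehicle was the lowest group, and the other 3 groups overlapped. Against control vehicle, 59.6% (Dicer vehicle) and 88.0% (control metformin) of all tested human names were called. After scaling of each array to its 75th percentile, the mean log2 signal was 3.97 ± 0.18 (SD, n = 3) in control vehicle. It was 5.24 ± 0.35 in Dicer vehicle, 5.28 ± 0.16 in control metformin and 5.33 ± 0.06 in Dicer metformin (SD, n = 3 each). The signal was 6.30 to 11.9 times its stated error.

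miR-520e, which shares the miR-520b seed, had signals of 4.05 and 8.64 in control vehicle replicates 1 and 2 and was not detected in replicate 3. In Dicer vehicle its signals were 23.7, 16.8 and 13.8. They were 15.5, 12.5 and 15.2 in control metformin and 18.2, 14.9 and 15.5 in Dicer metformin. Again control vehicle was the lowest group and the other 3 groups overlapped. The mean log2 scaled signal was 2.10 ± 0.67 (SD, n = 3) in control vehicle, with the undetected array set to the floor of 1.59. It was 4.09 ± 0.45 in Dicer vehicle, 4.01 ± 0.15 in control metformin and 4.10 ± 0.09 in Dicer metformin (SD, n = 3 each).

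miR-516a-5p, from the other arm type and with an unrelated seed, had signals of 7.51 and 8.03 in control vehicle replicates 1 and 2 and was not detected in replicate 3. In Dicer vehicle its signals were 8.11, 9.64 and 7.63. They were 18.3, 14.6 and 12.6 in control metformin and 10.2, 7.96 and 8.91 in Dicer metformin. Here control metformin was the highest group. The mean log2 scaled signal was 2.36 ± 0.67 in control vehicle, 3.02 ± 0.22 in Dicer vehicle, 4.07 ± 0.24 in control metformin and 3.26 ± 0.14 in Dicer metformin (SD, n = 3 each). The summed scaled signal of the detected members per array was 23.8 ± 8.94 in control vehicle, 64.2 ± 14.8 in Dicer vehicle, 72.2 ± 7.54 in control metformin and 67.1 ± 2.49 in Dicer metformin (SD, n = 3 each). With scaling to viral names the mean sum was 43.5 in control vehicle and 43.2 in control metformin.

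**Figure D3:**
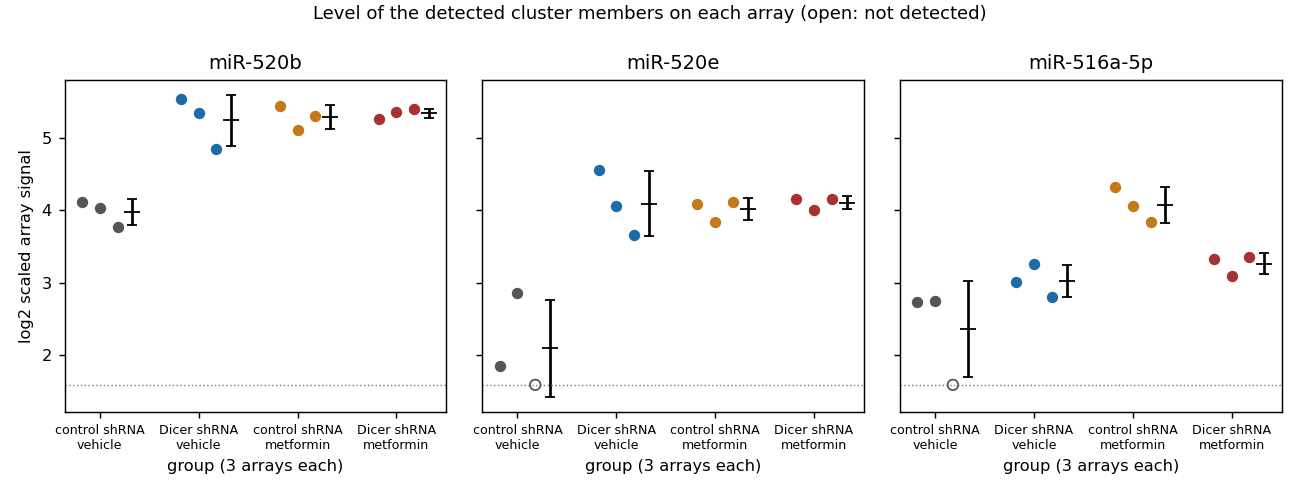
Log2 scaled array signal of miR-520b, miR-520e and miR-516a-5p on each of the 12 arrays, with the mean and SD of each group (n = 3) beside the points. Open circles are arrays that did not detect the name and were set to the floor (dotted line, 1.59). miR-520b and miR-520e are low only in control vehicle, and miR-516a-5p is highest in control metformin.

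Under vehicle, miR-520b and miR-520e rose in Dicer shRNA cells. miR-520b was higher by 1.27 ± 0.17 on the log2 scale (SE), a 2.41-fold difference (limma, adjusted p = 0.00012). miR-520e was higher by 1.99 ± 0.31 (adjusted p = 0.00029), a 3.98-fold difference that is limited by the floor on 1 array. Both stayed called under each of the 5 scalings tried, with miR-520b at 0.39 (viral names, adjusted p = 0.012) to 1.73 (quantile) and miR-520e at 1.45 to 2.27. For miR-516a-5p the difference was 0.66 ± 0.29 (adjusted p = 0.070), and without control vehicle replicate 3, which did not detect it, 0.28 (adjusted p = 0.21). After scaling the groups did not overlap for any of these 3 members. In the deposited signals the groups overlapped for miR-516a-5p, with 8.03 in control vehicle replicate 2 and 7.63 in Dicer vehicle replicate 3. The share of all tested names without overlap is not given here, so the lack of overlap has no background beside it.

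The test covered 208 human names, those with a detection on each of the 3 arrays in 1 or more groups. miR-520b passed that filter in all 4 groups, and miR-520e and miR-516a-5p in the 3 groups other than control vehicle. For miR-520e and miR-516a-5p a level above control vehicle was thus partly set in advance. Of the 208 names, 59.6% were called in this comparison and 21.6% were called higher, with a median difference of 0 over all of them. The calls comprised 45 higher and 79 lower names, and other scalings gave 14 and 119 (viral names) to 61 and 53 (quantile). So 2 of 3 tested members stand against a background in which most names were called. Control features moved too. The 10 viral names detected on all arrays were all higher in Dicer vehicle (median 0.87, range 0.17 to 1.67). The 4 detected hur features, printed controls of the array, were all lower (median -0.81). The part of these array-wide shifts in the members' differences was not tested.

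In control shRNA cells, metformin arrays showed higher signals for all 3 detected members. miR-520b differed by 1.31 ± 0.17 (SE; limma, adjusted p = 3.7e-05), a 2.48-fold difference. miR-520e differed by 1.91 ± 0.31 (adjusted p = 0.00018) or 3.77-fold, and miR-516a-5p by 1.71 ± 0.29 (adjusted p = 0.00022) or 3.28-fold. The last pair of folds is limited by the floor, since control vehicle replicate 3 detected neither name. Both passed the filter only through groups other than control vehicle, so their higher level here was partly set in advance. In the same comparison 88.0% of the 208 names were called and 47.6% were called higher, with a median of 0.52. Relative to that median the members were higher by 0.79, 1.39 and 1.19. This comparison and the knockdown under vehicle share the 3 control vehicle arrays, on which miR-520b and miR-520e were low.

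The direction of miR-520b in this comparison depended on the scaling. When each array was scaled to the viral names in place of the human 75th percentile, miR-520b differed by -0.34 (adjusted p = 0.019) and the median of all tested names was -0.99. miR-520e was then at 0.60 (adjusted p = 0.18) and miR-516a-5p at 0.40 (adjusted p = 0.41). Relative to the median of all names, miR-520b stayed above it under each of the 5 scalings, by 0.65 (viral names) to 1.67 (quantile). A position above that median is relative to the other names and gives no direction of its own. The 10 viral names were themselves higher on control metformin arrays by a median of 1.38, and the 4 hur features lower by a median of -3.84. Scaling to viral names changed the split of calls over all names from 99 higher and 84 lower to 36 higher and 124 lower.

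**Figure D4:**
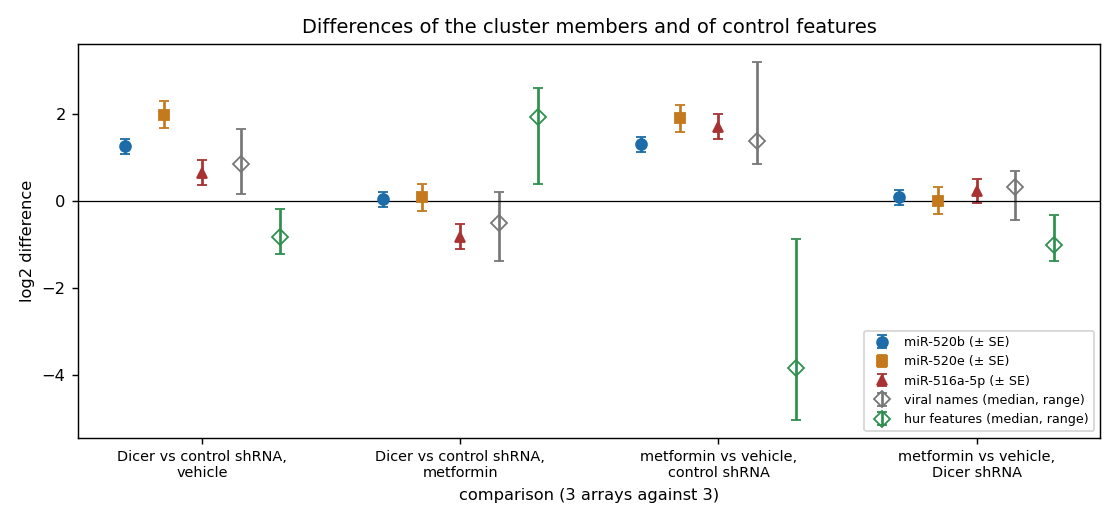
Log2 difference of the 3 detected members (± SE) in the 4 comparisons of 3 arrays against 3, beside the median and range of the 10 viral names and the 4 hur features. In the comparisons against control vehicle the members and viral names lie above 0 and the hur features below it.

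With metformin on both lines, miR-520b and miR-520e showed no difference that passed the test between Dicer and control shRNA. The difference of miR-520b was 0.05 ± 0.17 (SE; limma, adjusted p = 1), with a 95% interval from -0.33 to 0.44. That of miR-520e was 0.09 ± 0.31 (adjusted p = 1), with an interval from -0.60 to 0.78. The direction for miR-520b turned with median scaling, to -0.35 (adjusted p = 0.0059), where the median of all names was -0.61, and with quantile scaling, to -0.27 (adjusted p = 0.26). It was 0.59 (adjusted p = 0.0028) with scaling to viral names. miR-520e was at -0.31 (adjusted p = 0.40) with median scaling.

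miR-516a-5p fell by 0.81 on the log2 scale (SE 0.29; limma, adjusted p = 0.046) in Dicer shRNA cells under metformin. The call was lost when any 1 of the 6 arrays was left out (adjusted p 0.061 to 0.15), and with viral names the difference was -0.27 (adjusted p = 0.87). In this comparison 38.9% of the 208 names were called and 25.0% were called lower, with a median of -0.24. Of the calls 35.8% were higher names, against 17.8% with median scaling and 70.6% with viral names. The viral names had a median of -0.49 (9 of 10 lower), and the hur features one of 1.95 (4 of 4 higher).

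In Dicer shRNA cells, none of the 3 members passed the test between metformin and vehicle, where 24.5% of all tested names were called (median 0), 13 higher and 38 lower. Other settings gave 6 and 44 (no scaling), 7 and 42 (viral names), 33 and 25 (quantile) or 97 and 21 (the authors' deposited series matrix). At an unadjusted p under 0.05 the count was also 0. The differences were 0.09 ± 0.17 for miR-520b, 0.01 ± 0.31 for miR-520e and 0.24 ± 0.29 for miR-516a-5p (SE). Their 95% intervals ran from -0.29 to 0.48, from -0.68 to 0.70 and from -0.40 to 0.88. The metformin and vehicle arrays overlapped for each of them. The signs for miR-520b and miR-520e turned with no scaling, median scaling and viral names, and that of miR-516a-5p moved to just below 0 with viral names.

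The knockdown difference itself differed between the metformin and vehicle slides for all 3 members. The interaction was -1.22 ± 0.24 for miR-520b (SE; limma, adjusted p = 0.0013), -1.90 ± 0.44 for miR-520e (adjusted p = 0.0031) and -1.48 ± 0.41 for miR-516a-5p (adjusted p = 0.0078). Over the 208 names 76.4% were called for this term and 39.4% were called with a negative sign, and the median was -0.53. The viral names were negative in 10 of 10 (median -1.32). With scaling to viral names none of the 3 interactions was called, and that of miR-520b was 0.20 (adjusted p = 0.30), while the median of all names was 0.82. With the authors' deposited series matrix that of miR-516a-5p was -1.57 and not called (adjusted p = 0.053). The calls over all names went from 77 positive and 82 negative to 115 and 20.

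**Figure D5:**
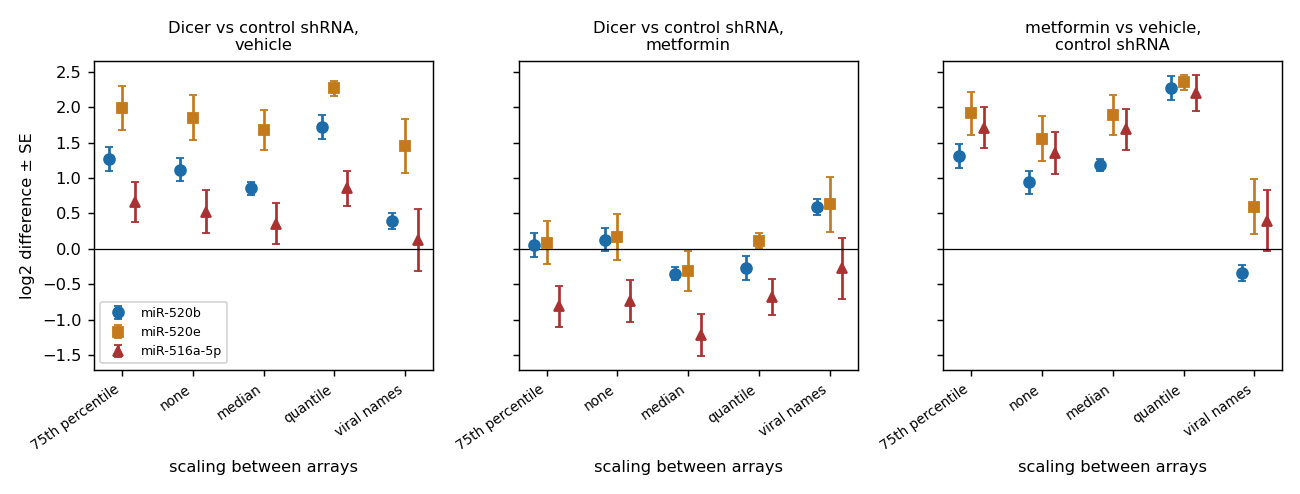
Log2 difference (± SE) of the 3 detected members under 5 scalings between arrays, in 3 comparisons. In the knockdown under vehicle all values lie above 0 under each scaling, while in control cells with metformin miR-520b lies above 0 under 4 scalings and at -0.34 with viral names.

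Averaged over both slides, the knockdown difference was 0.66 ± 0.12 for miR-520b (SE; limma, adjusted p = 0.0013) and 1.04 ± 0.22 for miR-520e (adjusted p = 0.0028). It was -0.08 ± 0.20 for miR-516a-5p (adjusted p = 0.79). For this average 51.0% of all tested names were called and 15.4% were called higher, with a median of -0.18. The calls comprised 32 higher and 74 lower names, against 4 and 129 with median scaling, 15 and 82 with viral names and 56 and 47 with quantile scaling. For miR-520b and miR-520e the average joins a difference on the vehicle slide with one near 0 on the metformin slide.

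Relatives outside the cluster were set beside the members. The neighbouring miR-371 to miR-373 cluster lies downstream on the same strand and is expressed in embryonic stem cells and germ cell tumours. Its sequences, and those of the seed relatives miR-302a and miR-17, are shown for comparison of the seed.

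miR-372: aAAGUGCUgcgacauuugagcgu
miR-373: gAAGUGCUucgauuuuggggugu
miR-371-5p: aCUCAAACugugggggcacu
miR-302a: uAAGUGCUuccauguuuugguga
miR-17: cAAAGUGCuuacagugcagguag

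Of the 5 names of the neighbouring cluster, miR-371-5p was detected, on 11 of 12 arrays, and miR-371-3p, miR-372, miR-373 and miR-373* on none. The array that did not detect miR-371-5p was in control vehicle and was set to the floor, which limits the differences from that group. miR-371-5p passed the filter only through the other groups, so a higher level there was partly set in advance. The mean log2 scaled signal of miR-371-5p was 2.39 ± 0.70 in control vehicle and 3.83 ± 0.30 in Dicer vehicle (SD, n = 3 each). It was 4.54 ± 0.11 in control metformin and 4.28 ± 0.28 in Dicer metformin (SD, n = 3 each). Under vehicle it was higher in Dicer shRNA cells by 1.44 ± 0.31 (SE; limma, adjusted p = 0.0021), and by 0.90 (adjusted p = 0.083) with scaling to viral names. With metformin in control cells it was higher by 2.15 ± 0.31 (adjusted p = 7.4e-05), and by 0.84 (adjusted p = 0.090) with viral names. Between the lines under metformin it differed by -0.25 ± 0.31 (adjusted p = 0.59), and by 0.28 (adjusted p = 0.85) with viral names. Its lowest group was control vehicle, as for all 3 detected members. In both comparisons against control vehicle the 10 viral names were also higher, and the 4 hur features were lower.

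The AAGUGCU seed relatives of pluripotent cells, miR-302a to miR-302d, were detected on 0 of 12 arrays, as were miR-372 and miR-373. Among the members and relatives examined, the signal for this seed was thus read under the names miR-520b and miR-520e. Of the miR-17 seed relatives, which carry AAAGUGC and promote proliferation, 5 names were on the array and 4 were tested. All 4 (miR-17, miR-20a, miR-93 and miR-106b) were lower in Dicer vehicle than in control vehicle under each of the 5 scalings. miR-17, miR-20a and miR-106b passed the filter only through control vehicle, so for them a lower level elsewhere was largely set in advance. In Dicer vehicle miR-17 and miR-20a stood at the floor (1.59). Over all tested names 79 of 208 were called lower in that comparison. miR-93 fell by 2.00 on the log2 scale (SE 0.25; limma, adjusted p = 6.1e-05) there. On the 3 control metformin arrays none of the 5 was detected, against a summed scaled signal of 184 to 222 in control vehicle. In Dicer metformin miR-93 was the only one of the 4 tested names with a detection, on 1 array. The others were at the floor in both metformin groups, so their levels could not be compared between the lines there.

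Markers of other cell types were read on the same arrays. Those of pluripotent cells (5 names), of embryonic and trophoblast cells (3 names), liver (1 name) and neurons (2 names) were all at 0 detections. The embryonic and trophoblast names are miR-371-3p, miR-372 and miR-373, whose neighbour miR-371-5p, detected on 11 arrays, was not on the marker list. Of 6 blood markers, miR-223 and miR-486-5p were detected on the 3 control metformin arrays alone (summed scaled signal 15.2 to 20.4). The erythroid miR-451 and miR-144, and also miR-142-3p and miR-142-5p, were detected on no array. Of 4 muscle markers, miR-133a was detected on 10 arrays and miR-133b on 4, while miR-1 and miR-206 were at 0. The summed muscle signal was 0 to 4.41 in control vehicle, 0 to 6.52 in Dicer vehicle, 24.9 to 29.9 in control metformin and 7.74 to 21.1 in Dicer metformin. The blood and muscle sums were highest in control metformin, as was miR-516a-5p, and their part in its difference was not tested.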

How the data were processed

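Per the labels, Cy3-labelled total RNA was measured on Agilent microRNA arrays with 1 colour, although the labelling protocol there describes an mRNA kit. The deposited files give a total gene signal (a linear intensity), its error and a detection flag (other values), per the file headers. The submitters' processing notes name Agilent Feature Extraction 9.1. The authors' deposited series matrix holds log2 values of 221 names, with column medians of 3.19 to 4.06. Its normalization and centring are unknown. It was used as an alternative. Groups follow the titles. The source names of both metformin groups disagree with them.

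Signals were scaled to each array's 75th percentile over the 98 human names detected on all 12 arrays (factors 0.836 to 1.15). They were floored at 3.01 (each array's 5th percentile of detected signals, then the median of these) and turned to log2. A model of 4 group means was fitted to the 208 names in limma 3.58.1 (R 4.3.3; 8 residual degrees of freedom, prior 1.85). Benjamini-Hochberg adjusted p under 0.05 is a call. The fit was tested on simulated data. Other steps used Python 3.11.15, pandas 2.3.3 and matplotlib 3.10.9. The number of arrays limits the precision. Each tested member is named with its values and the undetected members once. Relatives and cell type markers come from fixed lists. The members and lists were chosen with earlier results of these data known. Alternatives covered scaling, floor, filter, array weights, groups fitted, replicate block, the series matrix and leaving out each array. Sequences and coordinates come from RefSeq (GRCh38.p14), where older names were matched to their present arm.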

Additional observations from a re-analysis of the deposited data

Results flagged for a closer look

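For all 3 detected members the knockdown difference under metformin differed from that under vehicle by the interaction term of the fit. The log2 interaction was -1.22 for miR-520b (limma, adjusted p = 0.0013), -1.90 for miR-520e (adjusted p = 0.0031) and -1.48 for miR-516a-5p (adjusted p = 0.0078). Beside them, 76.4% of the 208 tested names were called for the same term. With arrays scaled to viral names none of the 3 passed the test.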

How the results depend on the processing

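Over the 342 combinations of member, comparison and alternative, 295 kept direction and side of the threshold, 17 lost a call, 6 gained one and 24 changed sign. The alternatives of filter, groups fitted and replicate block leave the differences unchanged, so direction was fixed there. Fits that leave out 1 array also overlap, so the tally is not a rate of robustness. In 3 of the 24, all for miR-520b, the value was called in the fit as reported or in the alternative: knockdown under metformin with median scaling (-0.35), and with viral names metformin in control cells (-0.34) and the interaction (0.20). The other 21 were called in neither. For the knockdown under metformin they were miR-520b with quantile scaling (-0.27), array weights (-0.013) or 1 array left out (-0.034 to 0.13), and miR-520e with median scaling (-0.31). For metformin in Dicer cells they were miR-520b (-0.049, -0.025 and -0.14) and miR-520e (-0.13, -0.11 and -0.23) with no scaling, median scaling and viral names, miR-520e with the offset (-0.0049) and miR-516a-5p with viral names (-0.0018). There, leaving out 1 array gave -0.10 to 0.24 for miR-520b and -0.20 to 0.24 for miR-520e. The average of miR-516a-5p was 0.086 with quantile scaling and 0.085 with the series matrix, and -0.27 to 0.021 with 1 array left out. The cause was not tested. The filter on names detected on all arrays tests 1 member by construction, and called 1 in the knockdown under vehicle, metformin in control cells, the interaction and the average over slides, and 0 in the knockdown under metformin. In the last, 0 members were called with no scaling, quantile scaling, the lower floor, the filter on at least 1 array, the series matrix or without any 1 array (0 to 0), and 2 with median scaling; the 1 called with viral names was miR-520b, higher. With viral names 1 member was called for metformin in control cells and 0 for the interaction, and with the series matrix 1 for metformin in Dicer cells (miR-520b, 0.64), while the interaction of miR-516a-5p lost its call (-1.57, adjusted p = 0.053). The mean summed signal became 43.5 in control vehicle with viral names; 64.4, 99.6 and 43.2 in control metformin and 63.0, 82.8 and 58.4 in Dicer metformin with no scaling, quantile scaling and viral names. In the knockdown under vehicle miR-516a-5p was called with quantile scaling (0.85, adjusted p = 0.018) and without control vehicle replicate 1 or 2 (lowest adjusted p 0.040). Scaling to the 75th percentile over all human names was not run apart, since that percentile is 0.1 on each array, which equals no scaling. Dim signals limit miR-520e and miR-516a-5p, near the floor in control vehicle.

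With the replicate number as a block within slides, 3 members were called in the knockdown under vehicle (miR-516a-5p 0.66, adjusted p = 0.035), 1 under metformin, 3 for the interaction and 2 on average. With a block across slides, chosen after seeing the data, 3 were called for metformin in control cells and 0 in Dicer cells. The share of all tested names called in these block fits is not given here, so the counts have no background beside them. Deviations of same-numbered arrays correlated at -0.18 to 0.32, with at least 1 pair at or under 0.1 in each comparison. Such correlations cannot exclude a pairing of the arrays, and the fit as reported used none.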
